A study of Mus musculus with 24 samples.

Results

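Interferon-stimulated genes were followed across splenic B cells and the remaining splenic cells ("non-B cells") of mice with or without p53, before and after ionizing radiation (IR). The 34 genes were taken as a written list of well-known members of the antiviral program and looked up by symbol among the 21671 genes of the RNA-Seq files, and all 34 were found. No expression value entered the definition of the list, but the list was drawn up with earlier results of these data known. The series held 24 samples of C57/Bl6 mice, 8 weeks old, either Trp53+/+ or Trp53-/-, the latter lacking a working copy of the gene for p53 in every cell. The mice were mock-treated or received 7 Gy to the whole body and were killed 4 h later. Each combination of cell type and treatment had 4 Trp53+/+ and 2 Trp53-/- samples. B cells were those retained by magnetic beads against B220, and non-B cells were the flow-through of the same columns after lysis of red cells, so that they mixed T cells with NK and myeloid cells. The methods give these numbers as mice in each condition, and the labels number the samples of a group without saying which B and non-B cell samples came from the same spleen.

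Type I interferons bind the receptor Ifnar1-Ifnar2 on nearly every cell, and the kinases Jak1 and Tyk2 then phosphorylate Stat2. With Irf9 it enters a complex that binds the interferon-stimulated response element (ISRE) in the promoters of a large set of genes, whose products sense foreign RNA, degrade it, block its translation or trap budding virus. Interferon gamma acts on a different element, the gamma-activated site (GAS), and drives above all the GTPases of the IRG and GBP families and chemokines such as Cxcl10. In unstressed lymphocytes a low, constant interferon signal holds many of these genes at a readable level.

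The labels were first checked on Trp53 and on its classical target Cdkn1a, the cyclin-dependent kinase inhibitor p21. Trp53 RNA was still read in Trp53-/- cells, at an RPKM (reads per kilobase of exon, scaled to the reads on exons) of 21.6 to 41.8 over the 8 samples, against 35.0 to 65.8 in the 16 Trp53+/+ samples, and a value per gene does not show which exons were read. Cdkn1a rose in Trp53+/+ B cells from an RPKM of 0.893 to 1.36 to one of 82.3 to 97.8 and in non-B cells from 2.85 to 5.87 to 69.6 to 88.3, whereas irradiated Trp53-/- cells held 0.562 to 0.726 and 2.42 to 2.63. All 9 B cell markers were higher in unstressed Trp53+/+ B than non-B cells, and all 10 T cell, 7 NK cell and 9 neutrophil markers were lower. The B cell markers summed to an RPKM of 1068 to 1246 in these B cells and still to 356 to 572 in the non-B cells. Of 13 markers of macrophages, monocytes and conventional dendritic cells, 6 were lower in B cells and 4 were higher (Vcam1, C1qa, C1qb and Emr1). Their sums were 541 to 741 in B and 598 to 679 in non-B cells. The depth, estimated from the steps that single reads leave in low RPKM values, was 4.74 to 10.96 M (mega) reads. Trp53+/+ B cells had 7.51 to 10.21 M in controls and 4.74 to 7.61 M after IR, and Trp53-/- B cells 8.73 to 9.04 M and 8.76 to 9.19 M. Trp53+/+ non-B cells had 8.49 to 10.96 M in controls and 7.02 to 10.2 M after IR, and Trp53-/- non-B cells 8.58 to 9.05 M and 7.25 to 10.35 M. Several irradiated Trp53+/+ samples stood apart by reads over genes that blood cells do not use. Of 1443 olfactory and vomeronasal receptor genes, between 5.41% and 9.29% were read at all in the 12 unstressed samples and between 6.86% and 13.1% in irradiated Trp53-/- samples. Irradiated Trp53+/+ B cell replicates 1 to 4 had shares of 36.7%, 47.3%, 7.00% and 15.9%, and the non-B replicates shares of 24.7%, 8.66%, 51.4% and 35.8%. Counts of members called after IR in Trp53+/+ cells are given with and without the samples above 30%. The same holds for the counts of the genotype difference in non-B cells and of the cell type difference of the response. Most other results, among them those for other genes and for markers, are given only with these samples. The cells were sequenced in bulk, in which fewer cells of a type and less RNA per cell cannot be told apart.

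The promoters were searched for the elements through which interferons are known to act. RefSeq windows of 300 bases on the GRCm38.p6 build, from 250 bases before the transcription start to 50 after it, could be matched to 26 of the 34 genes. The motifs were the ISRE core GAAANNGAAA, which reads TTTCNNTTTC on the other strand, and the GAS core TTCNNNGAA, which reads the same on both strands. At least 1 ISRE core was found for 15 of these 26 genes (57.7%), compared to 3.99% of all 27025 genes with a window of that length, and none was found for the other 11. A GAS core was present for 5 of the 26 (19.2%), compared to 9.55% of all genes, and 1 of the GAS matches shared bases with an ISRE match. Windows for Usp18, Oas2, Mx1, Mx2, Rtp4, Zbp1, Parp9 and Parp14 were not matched. The 4 sequences below belong to genes with contrasting responses to IR, and the ISRE core matches are in capitals, each sequence reading 5′ to 3′ along its gene. Ifit3 (chr19:34583279-34583578, plus strand) rose in non-B cells and fell in B cells, Rsad2 (chr12:26456403-26456702, minus strand) rose in non-B cells, Ddx58 (chr4:40239776-40240075, minus strand) fell in B cells of both genotypes, and Bst2 (chr8:71537423-71537722, minus strand) rose in B cells.
Ifit3: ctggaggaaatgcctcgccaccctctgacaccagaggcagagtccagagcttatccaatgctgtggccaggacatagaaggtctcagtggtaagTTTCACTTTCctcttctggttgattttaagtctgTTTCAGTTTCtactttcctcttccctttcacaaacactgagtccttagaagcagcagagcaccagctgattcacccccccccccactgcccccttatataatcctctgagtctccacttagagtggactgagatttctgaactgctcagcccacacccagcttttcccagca
Rsad2: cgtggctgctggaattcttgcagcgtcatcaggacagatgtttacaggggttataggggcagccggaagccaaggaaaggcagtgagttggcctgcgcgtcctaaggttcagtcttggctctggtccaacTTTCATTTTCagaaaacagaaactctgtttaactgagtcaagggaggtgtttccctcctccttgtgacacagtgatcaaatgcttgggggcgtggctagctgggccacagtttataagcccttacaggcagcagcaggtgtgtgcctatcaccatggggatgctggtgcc
Ddx58: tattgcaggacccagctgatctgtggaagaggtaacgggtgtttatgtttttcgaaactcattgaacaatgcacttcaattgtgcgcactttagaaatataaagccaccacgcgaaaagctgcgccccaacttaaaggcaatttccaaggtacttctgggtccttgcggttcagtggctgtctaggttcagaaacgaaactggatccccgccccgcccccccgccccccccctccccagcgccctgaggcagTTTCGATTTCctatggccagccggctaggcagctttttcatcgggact
Bst2: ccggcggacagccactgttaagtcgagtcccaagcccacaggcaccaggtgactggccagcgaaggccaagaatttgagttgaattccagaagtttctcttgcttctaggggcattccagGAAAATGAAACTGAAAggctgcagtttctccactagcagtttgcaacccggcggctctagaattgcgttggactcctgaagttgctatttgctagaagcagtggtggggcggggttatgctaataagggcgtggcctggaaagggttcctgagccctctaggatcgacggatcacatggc
Ifit3 carried 2 separate cores, Rsad2 carried 1 and Bst2 carried 2 that overlap, all upstream of the start, while the core of Ddx58 began 2 bases after the start. Among genes that fell in Trp53+/+ B cells, 4 of the 10 with a window held an ISRE core, as did 10 of the 15 that were not called there. Among genes that rose in Trp53+/+ non-B cells, 4 of the 5 with a window held one, against 11 of the 21 not called. A match of these letters is a description of the window and not a binding site.

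All 34 genes were expressed in every group. In unstressed Trp53+/+ cells their mean RPKM ranged from 2.99 to 67.5 in B cells, with a median of 28.2 over the genes, and from 3.79 to 78.1 in non-B cells, with a median of 34.2. RPKM is scaled by gene length and can be compared between genes, though removal of duplicate reads can lower the highest values. Irf7, the factor that amplifies the interferon response, was among the most abundant, with an RPKM of 55.7 ± 5.27 (SD, n = 4) in B and 78.1 ± 4.87 (SD, n = 4) in non-B cells, whereas the chemokine Cxcl10 was low, with 2.99 ± 1.01 and 4.55 ± 1.99. Genes were called differentially expressed (DEGs) by limma on log2(RPKM + 0.5) at an adjusted p under 0.05 over all genes tested and an absolute log2 fold change above 0.58. Between the unstressed Trp53+/+ populations, 7 members were lower in B cells and 1 was higher, where 17.2% and 7.38% of the 14598 genes tested were called in these directions. The lower genes were Oas3 (log2 difference -1.66 ± 0.22 SE, adjusted p = 1.7e-05), Oasl2, Ifit1, Ifih1, Rsad2, Oas2 and Igtp, and the gene that was higher in B cells was Gbp3 (log2 difference 0.77 ± 0.10 SE, adjusted p = 1.2e-05), a guanylate-binding GTPase. Rsad2 was not called without B cell control replicate 2 or 3 or non-B control replicate 1 or 2 (adjusted p = 0.082 to 0.1), nor Igtp without B cell control replicate 2 or 4 or non-B control replicate 1 or 3 (-0.52 to -0.57). Oas2 and Oas3 make the second messenger that activates RNase L, and Ifih1 encodes Mda5, a sensor of long double-stranded RNA. Unstressed B cell samples had an RPKM of 8.29, 7.30, 9.08 and 6.61 for Ifih1, and unstressed non-B cell samples 21.0, 17.9, 14.6 and 13.8, with no overlap.

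**Figure D1:**
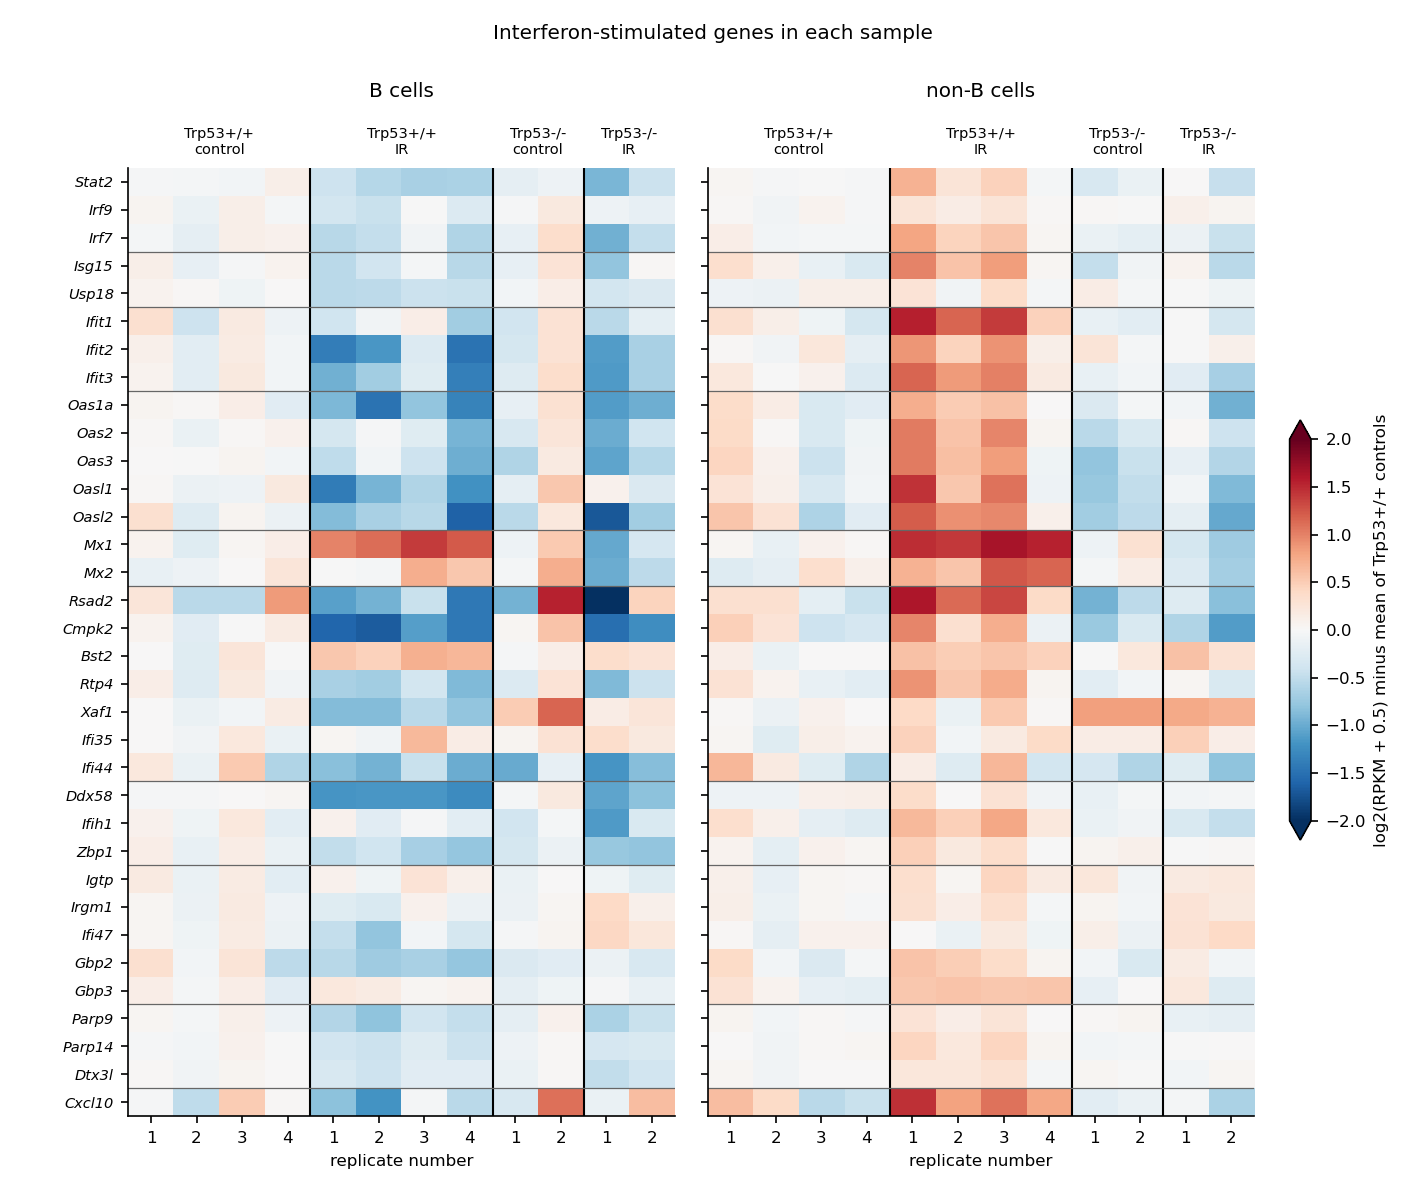
Heat map of the 34 genes (rows, ordered by role) in the 24 samples (columns, by cell type, genotype and treatment), with the colour giving log2(RPKM + 0.5) minus the mean of the unstressed Trp53+/+ samples of the same cell type. Most genes lie below that mean in irradiated B cells of both genotypes and above it in irradiated Trp53+/+ non-B cells, where replicate 4 is nearest to the controls, while the rows of Mx1 and Bst2 are positive in the irradiated Trp53+/+ samples of both cell types.

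In Trp53+/+ B cells, IR was followed by lower RNA of much of the program. Of the 34 genes, 12 fell and 2 rose, where 12.2% and 12.5% of all 13821 genes tested in B cells did so, and the median log2 fold change was -0.49 over the members and 0.01 over all genes tested. For 17 members every irradiated sample lay below every control and for 2 every one lay above, against 23.3% and 22.9% of all genes. Each irradiated sample lay lower in its median over the members, with values of -0.52, -0.50, -0.25 and -0.62 on the log2 scale relative to the mean of the controls. Without the irradiated samples above 30% receptor genes, 13 members fell and 3 rose. Ifi44 was not among them (-0.71, adjusted p = 0.1), while Stat2 (-0.64, adjusted p = 0.00099), Oas3 (-0.70, adjusted p = 0.027) and Mx2 (0.63, adjusted p = 0.028) were called in addition. Calls close to the fold threshold were lost without single samples, that of Bst2 without control replicate 2 (0.51) or irradiated replicate 3 (0.55) or 4 (0.57), that of Zbp1 without control replicate 1 or 3 or irradiated replicate 3 or 4 (-0.52 to -0.56), that of Gbp2 without control replicate 1 (-0.56) and that of Rtp4 without irradiated replicate 4 (-0.57). Ifi44 lost its call without control replicate 1 (adjusted p = 0.053) or 3 (adjusted p = 0.063).

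The largest falls were those of enzymes and sensors. Cmpk2, a mitochondrial nucleotide kinase that lies next to Rsad2 on chromosome 12, had an RPKM of 20.8, 16.9, 19.7 and 22.2 in control Trp53+/+ B cells and of 6.29, 5.87, 9.01 and 7.03 after IR. The groups did not overlap, and the log2 fold change was -1.44 ± 0.15 (SE, adjusted p = 6e-06). Ddx58, which encodes the RNA sensor RIG-I and whose ISRE core lies just past its start, went from 36.6, 36.6, 37.3 and 38.5 to 16.1, 16.3, 16.4 and 15.2. Both groups were tight and far apart, with a log2 fold change of -1.19 ± 0.07 (SE, adjusted p = 4e-08). Oas1a, of the family of oligoadenylate synthetases, went from 11.2, 10.9, 11.8 and 9.10 to 5.48, 3.53, 5.95 and 3.96, again without overlap (log2 fold change -1.13 ± 0.16 SE, adjusted p = 0.00011). Of the 5 members of this family, Oasl1 (-1.03) and Oasl2 (-0.92) fell as well, while Oas2 (log2 fold change -0.39 ± 0.19 SE, adjusted p = 0.11) and Oas3 (log2 fold change -0.49 ± 0.20 SE, adjusted p = 0.059) were not called.

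In the IFIT family, whose proteins bind foreign RNA ends and block translation, 2 of 3 genes fell in Trp53+/+ B cells. Ifit2 went from an RPKM of 20.3, 16.2, 21.2 and 18.1 to 6.88, 8.12, 15.5 and 6.46, with every irradiated sample below every control (log2 fold change -1.08 ± 0.24 SE, adjusted p = 0.0024), and Ifit3 had a log2 fold change of -0.82 ± 0.21 (SE, adjusted p = 0.0066). Ifit1 did not follow beyond its spread: it had 17.7, 10.4, 15.99 and 13.1 before and 10.5, 13.3, 15.4 and 8.45 after IR, and these groups overlapped (log2 fold change -0.26 ± 0.21 SE, adjusted p = 0.32). The other falls were those of Ifi44 (-0.80, with overlapping groups), the apoptosis-linked Xaf1 (-0.77), Gbp2 (-0.67), the chaperone Rtp4 (-0.65) and Zbp1 (-0.59), a sensor of Z-form nucleic acids. Rsad2, which encodes the antiviral enzyme viperin, varied widely among controls and was not called, with 16.03, 9.13, 9.13 and 24.9 before and 6.09, 6.76, 9.87 and 4.73 after IR (log2 fold change -0.98 ± 0.57 SE, adjusted p = 0.17). The antiviral ubiquitin-like modifier Isg15 had 32.5, 26.7, 29.5 and 31.7 in controls and 20.5, 22.9, 29.2 and 20.3 after IR, with overlapping groups (log2 fold change -0.38 ± 0.17 SE, adjusted p = 0.076).

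None of the 3 signalling factors Irf7, Irf9 and Stat2 was called in these cells, and their log2 fold changes were -0.27 to -0.57. Stat2 had 47.7, 46.9, 46.6 and 52.6 in controls and 36.0, 32.5, 30.7 and 31.1 after IR in Trp53+/+ B cells, without overlap and with an adjusted p under the threshold but a log2 fold change of -0.57 ± 0.09 (SE, adjusted p = 0.00029) just short of it. Parp14, an ADP-ribosyltransferase, was similar, with 52.0, 51.0, 56.2 and 52.3 in controls and 40.6, 38.9, 44.1 and 39.2 after IR (log2 fold change -0.37 ± 0.06 SE, adjusted p = 0.00017). Igtp, a GTPase that acts on vacuoles of intracellular pathogens, had 41.4, 33.3, 41.0 and 31.3 in controls and 38.7, 34.5, 44.2 and 39.2 after IR. These groups overlapped, and the 95% interval of the log2 fold change was -0.12 to 0.31. Only Gbp2 was called among the 5 members of the IRG and GBP families.

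Mx1 and Bst2 went the other way. Mx1 belongs to the dynamin-like GTPases that block virus replication, and the allele of most inbred laboratory strains lacks part of the coding sequence. Its RPKM in Trp53+/+ B cells was 23.4, 18.8, 23.1 and 24.5 in controls and 45.0, 49.0, 59.4 and 53.1 after IR, a clear separation with a log2 fold change of 1.18 ± 0.16 (SE, adjusted p = 6.6e-05). Bst2, or tetherin, which holds budding virus at the cell surface, went from 37.2, 31.2, 43.9 and 36.9 to 53.8, 51.4, 61.2 and 58.9, also without overlap (log2 fold change 0.60 ± 0.09 SE, adjusted p = 0.00021). The second Mx gene, Mx2, had 11.3, 11.7, 12.6 and 14.9 in controls and 12.6, 12.2, 21.0 and 18.4 after IR, with overlapping groups (log2 fold change 0.30 ± 0.20 SE, adjusted p = 0.23).

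Some transcripts listed for plasmacytoid dendritic cells, which carry B220 and make much interferon, fell in the same samples. Of 9 markers of this cell type, 6 fell in Trp53+/+ B cells (Klk1, Pacsin1, Cox6a2, Lair1, Smim5 and Tcf4), while Siglech, Ccr9 and Ly6d were not called. Tcf4, Ly6d and Cox6a2 were also called higher in unstressed Trp53+/+ B than non-B cells, and Ccr9 lower. Of all genes tested, 12.2% fell in Trp53+/+ and 11.2% in Trp53-/- B cells. Summed over all 9 markers, the RPKM was 247 to 286 before and 205 to 231 after IR. In Trp53-/- B cells 3 fell, with sums of 264 to 267 and of 232 to 235. Of 9 erythroid markers 7 fell in Trp53+/+ B cells, with sums of 53.4 to 128 before and 20.1 to 35.9 after IR, and of 13 markers of macrophages, monocytes and conventional dendritic cells 2 fell, with sums of 541 to 741 and of 429 to 639. In Trp53-/- B cells the last list summed to 524 and 552 before and 360 and 506 after IR, with 12 of 13 values negative, and of these markers only Cd14, which was higher, was called. None of these markers was at 0 in all samples of a group. Their part in the result was not tested.

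Members fell in Trp53-/- B cells too. Here 10 members fell and none rose, where 11.2% and 13.1% of the genes tested in B cells were called, and the median log2 fold change of the members was -0.50, against 0.02 over all genes tested. Of the 12 genes that fell in Trp53+/+ B cells, 7 also fell in Trp53-/- B cells. These were Cmpk2, Ddx58, Oas1a, Oasl2, Ifit3, Rtp4 and Xaf1. Oasl2 (-1.03) lost its call under 10 of 23 alternatives, among them the fits without filter (adjusted p = 0.072), with quantile normalization (adjusted p = 0.065) and without single samples (adjusted p = 0.054 to 0.39). Cmpk2 went from 20.4 and 29.6 to 6.61 and 8.11 (log2 fold change -1.68 ± 0.21 SE, adjusted p = 5.9e-05), Ddx58 from 36.1 and 42.5 to 17.7 and 20.9 (log2 fold change -1.01 ± 0.10 SE, adjusted p = 8.5e-06) and Oas1a from 9.53 and 13.4 to 4.68 and 5.17 (log2 fold change -1.12 ± 0.23 SE, adjusted p = 0.0021). In each of these the irradiated samples lay below both controls, as was the case for 19 members in all, while 3 lay above, against 32.0% and 39.5% of all genes. The remaining 3 genes called in Trp53-/- B cells were Irf7, Mx1 and Mx2. Irf7 had 49.7 and 71.0 in controls and 28.2 and 39.9 after IR (log2 fold change -0.81 ± 0.21 SE, adjusted p = 0.0076). Only 2 samples stood in each group, and the count fell to 3 genes (Cmpk2, Ddx58 and Oas1a) without control replicate 2 or without irradiated replicate 1, and rose to 16 without irradiated replicate 2.

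For the genes that fell in both, the test of the genotype difference gave no call. The log2 response in Trp53+/+ minus that in Trp53-/- B cells was -0.18 for Ddx58 (95% interval -0.44 to 0.07), 0.23 for Cmpk2 (-0.32 to 0.79) and 0.00 for Oas1a (-0.62 to 0.61). The rise of Bst2 had no call of its own in Trp53-/- B cells, with 36.5 and 40.8 before and 47.5 and 45.0 after IR, but the difference between genotypes was not called either, at 0.34 with an interval of -0.02 to 0.69 (adjusted p = 0.17).

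In Trp53+/+ non-B cells genes of the program rose after IR. Of the 34 genes, 7 rose and none fell, where 5.74% and 4.11% of the 14018 genes tested in non-B cells did so. Their median log2 fold change was 0.47, against -0.03 over all genes tested, and 33 of the 34 values were positive, where 45.6% of all genes had a positive value. For 8 members every irradiated sample lay above every control, against 10.0% of all genes, and for none below, against 12.1%. The genes called were Mx1, Ifit1, Rsad2, Cxcl10, Mx2, Ifit3 and Ifit2, so that all 3 IFIT genes and both Mx genes were among them.

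Ifit1 had an RPKM of 43.9, 38.0, 33.2 and 27.5 in control Trp53+/+ non-B cells and of 105, 79.5, 93.1 and 48.5 after IR. Every irradiated sample was above every control, though replicate 4 only just (log2 fold change 1.14 ± 0.21 SE, adjusted p = 0.0049). Rsad2 showed the same order, from 32.5, 32.2, 22.5 and 18.8 to 80.3, 57.2, 65.7 and 33.9 (log2 fold change 1.12 ± 0.26 SE, adjusted p = 0.015). Ifit2 went from 27.7, 25.8, 32.1 and 24.1 to 50.8, 37.4, 51.1 and 29.7 (log2 fold change 0.59 ± 0.16 SE, adjusted p = 0.031), where replicate 4 lay within the controls. Cxcl10, a chemokine that attracts activated T cells and whose exons share 133 bases with Art3, went from 6.77, 5.68, 2.76 and 2.97 to 12.6, 7.79, 9.56 and 7.61, a low level throughout, with no overlap (log2 fold change 1.03 ± 0.28 SE, adjusted p = 0.026).

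Further genes came close to a call in these cells, and 3 of them were called with the replicate number as a block, which raised the count from 7 to 10. Same-numbered control and irradiated samples deviated together over genes in these cells, in all 4 pairs. Only 2 of the 4 controls, however, correlated best with the irradiated sample of their own number, and the labels do not say what a number marks. With the block Isg15 (0.61, adjusted p = 0.031), Oas2 (0.66, adjusted p = 0.033) and Oasl2 (0.80, adjusted p = 0.029) passed. Bst2 had 41.3, 34.2, 38.0 and 37.8 in controls and 56.8, 53.3, 55.9 and 52.2 after IR with no overlap, and its log2 fold change of 0.52 ± 0.09 (SE, adjusted p = 0.0022) missed the threshold on size. Isg15 had 46.4, 39.4, 33.0 and 29.5 in controls and 73.5, 54.4, 65.5 and 37.6 after IR, with replicate 4 inside the range of the controls (log2 fold change 0.61 ± 0.22 SE, adjusted p = 0.072), and Oas2 had 38.4, 29.9, 23.6 and 27.6 in controls and 60.7, 44.1, 58.7 and 30.6 after IR (log2 fold change 0.66 ± 0.21 SE, adjusted p = 0.052). The same holds for Oasl2, with 59.2, 49.1, 26.2 and 34.5 in controls and 93.6, 76.7, 79.3 and 43.1 after IR (log2 fold change 0.80 ± 0.29 SE, adjusted p = 0.075), whose controls were themselves widely spread. Igtp had 58.8, 49.2, 56.8 and 55.9 in controls and 69.9, 56.4, 74.7 and 62.8 after IR and Ifi47 had 69.8, 60.8, 72.8 and 73.0 in controls and 69.0, 62.9, 78.9 and 65.0 after IR, and both overlapped.

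The fourth irradiated Trp53+/+ non-B sample stood apart from the other three. Its median over the members was 0.05 on the log2 scale relative to the mean of the controls, while replicates 1, 2 and 3 had 0.67, 0.46 and 0.58. Of the 34 genes, 32, 26, 33 and 10 were above all 4 controls in replicates 1 to 4. Stat2 shows the pattern, with 42.5, 40.9, 41.3 and 40.9 in controls and 67.5, 49.5, 57.0 and 40.3 after IR, and so does Irf7, with 85.3, 74.7, 76.3 and 76.0 in controls and 135, 106, 115 and 79.7 after IR. Without replicate 4, 15 genes were called, among them Isg15 (0.80), Irf7 (0.59), Ifih1 (0.64), Oas2 (0.86), Oas3 (0.83), Oasl1 (1.03), Oasl2 (1.03) and Rtp4 (0.73). Without irradiated replicate 3 the count was 4, namely Mx1, Ifit1, Rsad2 and Mx2. Cxcl10 also lost its call without irradiated replicate 1 or control replicate 3 or 4 (adjusted p = 0.057 to 0.072), and Ifit2 without irradiated replicate 1 or control replicate 1, 2 or 4 (adjusted p = 0.054 to 0.082).

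Reads over receptor genes and marker levels moved with treatment in non-B cells as well. Without the samples above 30% receptor genes, which left irradiated replicates 1 and 2, 8 members rose. Of the 7 above Mx2 (0.63, adjusted p = 0.065) and Cxcl10 (1.13, adjusted p = 0.072) were not called, while Irf7 (0.62, adjusted p = 0.017), Oas2 (0.80, adjusted p = 0.04) and Rtp4 (0.72, adjusted p = 0.028) were called in addition. With the mean RPKM of the receptor genes as a covariate, only Mx1 (1.37) was called. Markers of macrophages, monocytes and conventional dendritic cells summed to 598 to 679 in controls and 661 to 895 after IR, with Cd14 called higher as 1 of 13. Those of plasmacytoid dendritic cells summed to 161 to 186 and 122 to 177, with 3 of 9 lower, those of T cells to 456 to 657 and 365 to 488, with Cd8a and Cd8b1 lower of 10, and those of B cells to 356 to 572 and 240 to 485, with Blk and Cd22 lower of 9. Of 9 erythroid markers 6 fell, from sums of 151 to 429 to sums of 32.2 to 119. Of all genes tested in these cells, 5.74% rose and 4.11% fell. The controls also differed among themselves. In replicates 1 to 4 the erythroid sums were 429, 420, 151 and 160 and the T cell sums 456, 475, 652 and 657. Those of plasmacytoid dendritic cells were 161, 182, 181 and 186. The part of the changes after IR and of the differences among controls in the result was not tested.

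In Trp53-/- non-B cells no member was called in either direction by limma, where 0.193% of all genes tested were called higher and 0.250% lower. At an unadjusted p under 0.05 there were 3 members. The median log2 fold change was 0.00, and 18 of the 34 values were positive, against 46.8% of all genes. Ifit1 had 31.5 and 30.4 before and 34.9 and 27.3 after IR, Rsad2 had 13.1 and 17.8 in controls and 21.6 and 14.2 after IR, and Irf7 had 70.8 and 68.2 in controls and 72.2 and 57.2 after IR. All 3 overlapped. The largest negative values were those of Mx1 (log2 fold change -0.63 ± 0.15 SE, adjusted p = 0.088) and Mx2 (log2 fold change -0.53 ± 0.26 SE, adjusted p = 0.36).

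Mx1 and Mx2 were the members whose response differed between the genotypes in both cell types. They are neighbours on chromosome 16, Mx1 at chr16:97668642-97684514 on the minus strand and Mx2 at chr16:97757690-97782506 on the plus strand of mm9. In B cells of Trp53-/- mice Mx1 had 20.8 and 32.3 in controls and 10.7 and 17.6 after IR, so that it fell (log2 fold change -0.89 ± 0.23 SE, adjusted p = 0.0079) where it had risen in Trp53+/+ cells. Irradiated Trp53+/+ B cell samples were all above both irradiated Trp53-/- samples. The difference between the responses was 2.08 ± 0.28 (SE, adjusted p = 0.00037) on the log2 scale. The fall in Trp53-/- B cells was not called without control replicate 2 (-0.58, adjusted p = 0.098) or irradiated replicate 1 (-0.55, adjusted p = 0.1). In non-B cells Mx1 went from 24.0, 21.1, 24.8 and 23.8 to 66.1, 63.5, 74.6 and 68.6 in Trp53+/+ mice (log2 fold change 1.52 ± 0.11 SE, adjusted p = 4.1e-06) and from 21.8 and 29.0 to 18.3 and 14.1 in Trp53-/- mice, and the responses differed by 2.15 ± 0.19 (SE, adjusted p = 0.00011).

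Mx2 followed a similar course at a lower level. Trp53-/- B cells had 12.2 and 21.1 in controls and 6.04 and 8.55 after IR (log2 fold change -1.11 ± 0.29 SE, adjusted p = 0.0082), where Trp53+/+ B cells were not called. The responses of the genotypes differed by 1.41 ± 0.35 (SE, adjusted p = 0.016). In non-B cells it went from 7.24, 7.69, 11.3 and 9.39 to 14.5, 13.1, 21.4 and 20.4 in Trp53+/+ mice, without overlap (log2 fold change 0.92 ± 0.19 SE, adjusted p = 0.0078), and from 8.47 and 9.73 to 7.13 and 5.26 in Trp53-/- mice, with a difference of 1.45 ± 0.32 (SE, adjusted p = 0.023). The difference of Mx1 was called in both cell types in every fit that left out a sample, with values of 1.73 to 2.42 in B and 1.95 to 2.35 in non-B cells over all alternatives. That of Mx2 lost its call in B cells without Trp53-/- control replicate 2 (1.03, adjusted p = 0.093) or irradiated replicate 1 (1.18, adjusted p = 0.09), and in non-B cells without any 1 of the 4 Trp53-/- samples (1.25 to 1.65, adjusted p = 0.051 to 0.1) or without the samples above 30% receptor genes (1.16, adjusted p = 0.051).

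**Figure D2:**
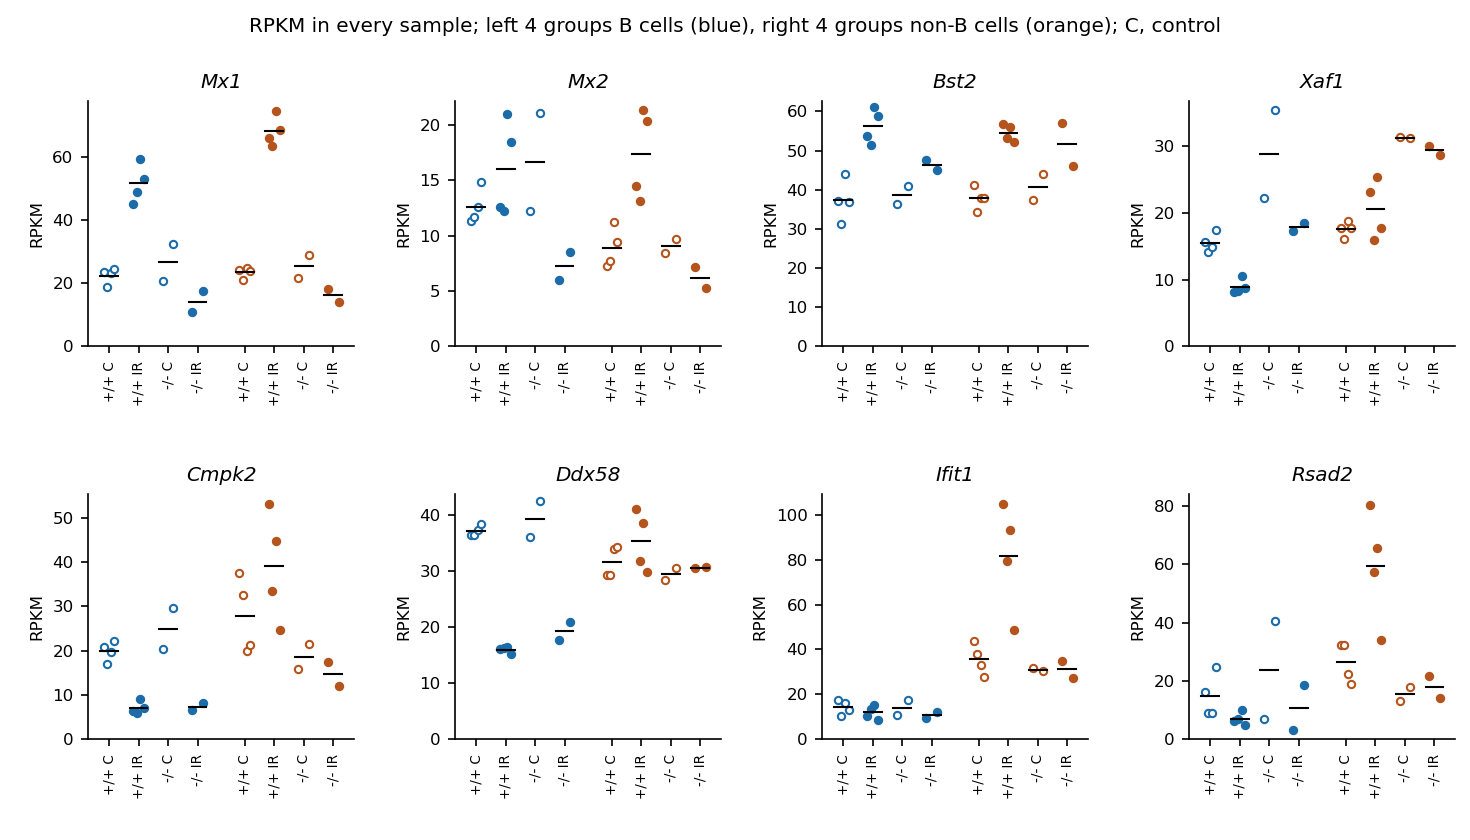
RPKM of 8 genes in every sample (points, open for controls and filled for irradiated samples, bars at the group means), by cell type and genotype. Irradiated Trp53+/+ samples of Mx1 lie between 45.0 and 74.6 in both cell types, above all other samples, while Cmpk2 and Ddx58 are low in irradiated B cells of either genotype.

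Over the whole list, the genotype difference of the response was called for 3 genes in B cells, where 6.56% of all genes were called higher and 5.43% lower in this test. It was positive for Mx1 and Mx2 and negative for Ifi47, an IRG GTPase, which had 59.3, 54.3, 64.6 and 52.9 in controls and 41.2, 33.0, 55.7 and 44.9 after IR in Trp53+/+ and 56.6 and 60.0 in controls and 76.8 and 67.8 after IR in Trp53-/- B cells (log2 difference -0.72 ± 0.22 SE, adjusted p = 0.039). The Ifi47 levels of both irradiated Trp53-/- samples were above those of all other B cell samples, but neither genotype had a call of its own, and the exons of Ifi47 share 111 bases with those of Olfr56, which the unstranded reads cannot assign. The call of Ifi47 was lost under 12 of 23 alternatives, with adjusted p values up to 0.16. In non-B cells the difference was called for Mx1 and Mx2 alone, against 3.72% of all genes called higher and 2.82% lower. The median difference was 0.03 for B cells, against -0.06 over all genes tested. For non-B cells it was 0.40, against -0.02, and 32 of the 34 values were positive, where 48.0% of all genes had a positive value. In the same test, 12 of 13 markers of macrophages, monocytes and conventional dendritic cells were positive (median 0.67, with Ccr2 called), as were 7 of 7 NK cell markers (median 0.57), while 0 of 9 B cell markers (median -0.68) and 1 of 10 T cell markers (median -0.34) were, and their part in the result was not tested. After the Mx genes the largest differences were those of Cxcl10 (log2 difference 1.19 ± 0.48 SE, adjusted p = 0.15) and Ifit1 (log2 difference 1.15 ± 0.37 SE, adjusted p = 0.082). With the replicate number as a block, the non-B count was 5, with Ifit1 (1.15, adjusted p = 0.013), Ifit3 (1.14, adjusted p = 0.015) and Ifih1 (0.83, adjusted p = 0.043) beside Mx1 and Mx2. It was 7 without irradiated Trp53+/+ replicate 4 and 4 without the samples above 30% receptor genes (Mx1, Ifit1, Ifit3 and Irf7). With the mean RPKM of the receptor genes as a covariate it was 1 (Mx1).

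**Figure D3:**
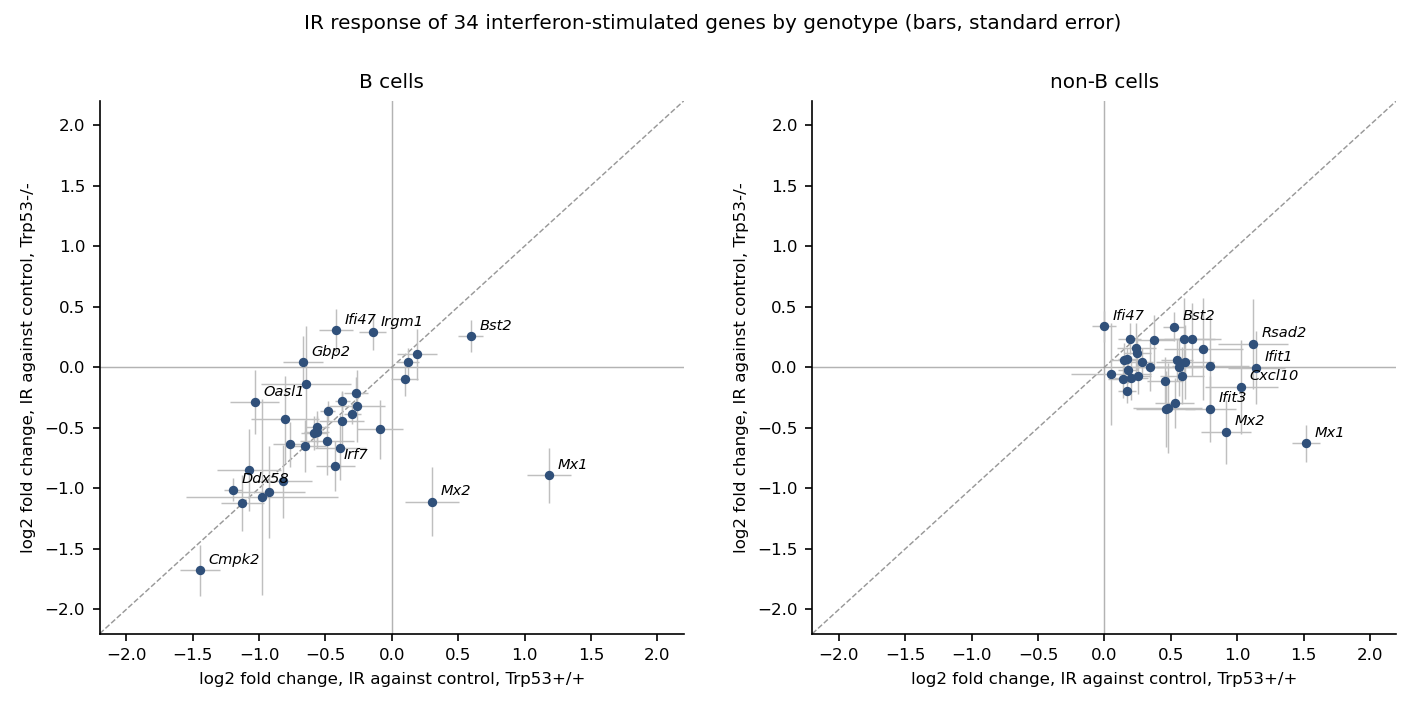
Log2 fold change after IR in Trp53-/- cells (y axis) against that in Trp53+/+ cells (x axis) for the 34 genes, in B cells and non-B cells, with bars of 1 standard error and the line of equal response. In B cells most genes scatter about the line below 0, with Mx1 far to the right of it, and in non-B cells most lie right of 0 in Trp53+/+ and near 0 in Trp53-/- cells.

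The response of the Trp53+/+ populations differed between B and non-B cells for most of the list. In a fit over the 16 Trp53+/+ samples, the response was lower in B than in non-B cells for 23 of 34 genes and higher for none, where 8.90% and 9.88% of all 14598 genes tested were called in these directions. The median difference was -0.90 over the members and 0.05 over all genes tested. Markers of macrophages, monocytes and conventional dendritic cells moved the same way, with 13 of 13 values negative, a median of -0.59 and Emr1, Ccr2, Lyz2 and Cd68 called, and their part in the result was not tested. In sign, 27 genes were negative in B and positive in non-B cells, 6 were positive in both and 1 was negative in both. Ifit2 and Ifit3 were called in opposite directions, and Mx1 was the 1 gene called in the same direction in both. Without the samples above 30% receptor genes 20 genes were called, and Cxcl10, Usp18 and Ifih1 were not among them.

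The differences were largest for Rsad2 (log2 difference -2.09 ± 0.45 SE, adjusted p = 0.0025) and for its neighbour Cmpk2 (log2 difference -1.92 ± 0.32 SE, adjusted p = 0.00038). In Trp53+/+ non-B cells Cmpk2 had 37.5, 32.5, 19.9 and 21.1 before and 53.02, 33.5, 44.8 and 24.6 after IR, with overlapping groups, unlike its fall in B cells. Next were Oasl1 (log2 difference -1.77 ± 0.36 SE, adjusted p = 0.0017) and Oasl2 (log2 difference -1.72 ± 0.39 SE, adjusted p = 0.0038). For Oasl2 the B cell samples went from 18.8, 12.4, 15.7 and 13.8 to 7.99, 9.42, 10.00 and 4.52. All 5 OAS genes, all 3 IFIT genes and all 3 nucleic acid sensors were called, the last including Ddx58 (log2 difference -1.34 ± 0.13 SE, adjusted p = 4.5e-06), which had 29.3, 29.3, 34.03 and 34.3 in controls and 41.2, 31.9, 38.7 and 29.97 after IR in Trp53+/+ non-B cells. The sensor Ifih1 (log2 difference -0.62 ± 0.21 SE, adjusted p = 0.033) lost this call under 10 of 26 alternatives, 8 of them with 1 sample left out (adjusted p = 0.059 to 0.075). Of the 5 IRG and GBP GTPases 1 was called, namely Gbp2. Neither Mx gene was called, with -0.34 ± 0.13 (SE, adjusted p = 0.071) for Mx1 and -0.61 ± 0.27 (SE, adjusted p = 0.11) for Mx2, and Bst2 had 0.07 ± 0.13 with an interval of -0.20 to 0.34.

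**Figure D4:**
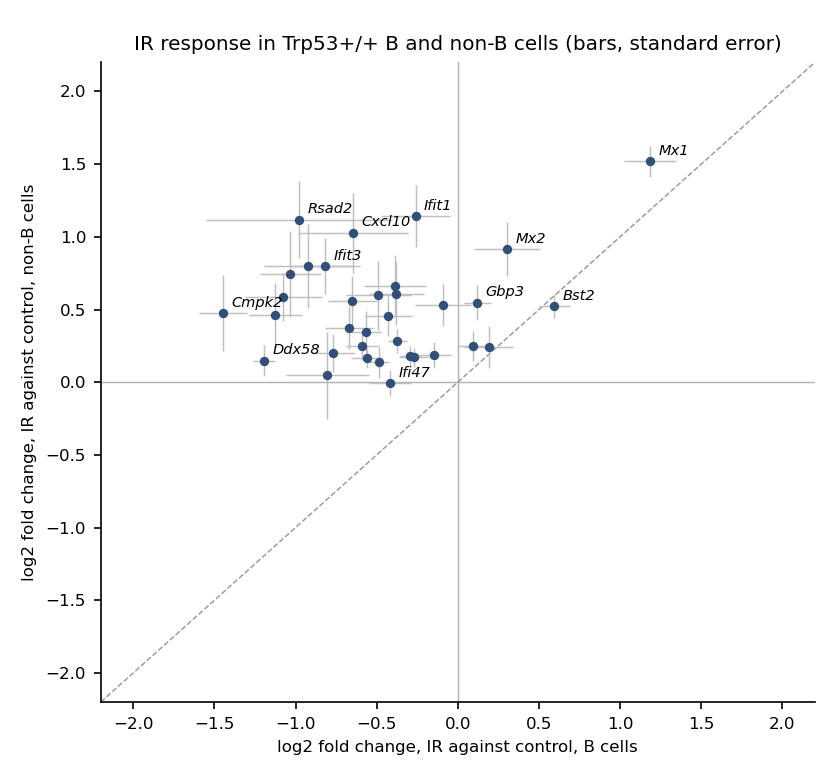
Log2 fold change after IR in Trp53+/+ non-B cells (y axis) against that in Trp53+/+ B cells (x axis) for the 34 genes, with bars of 1 standard error. Most genes sit in the upper left, negative in B and positive in non-B cells, while Mx1 and Bst2 lie in the upper right.

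No member was called between unstressed Trp53-/- and Trp53+/+ cells by limma, neither in B cells, where 0.0217% of all genes tested were called higher and 0.0289% lower, nor in non-B cells (0.0143% and 0.0285%). At an unadjusted p under 0.05 there were 1 and 2 members. Xaf1, whose samples are given here after its values had been seen, had 15.6, 14.1, 14.8 and 17.4 in Trp53+/+ and 22.2 and 35.5 in Trp53-/- control B cells, and 17.8, 16.1, 18.8 and 17.7 in Trp53+/+ and 31.3 and 31.3 in Trp53-/- control non-B cells. Both Trp53-/- samples lay above all 4 Trp53+/+ samples in either cell type. In B cells 1 member lay wholly above and 1 below (10.1% and 8.39% of all genes), and in non-B cells 2 and 5 (9.40% and 6.24%). For Xaf1 the differences were 0.84 ± 0.16 (SE, adjusted p = 0.21) and 0.82 ± 0.16 (SE, adjusted p = 0.26). The difference in B cells was 1.17 without Trp53-/- control replicate 1 and 0.51 without control replicate 2, with a lone Trp53-/- control left in each fit. Xaf1 lies at chr11:72115131-72127235 of mm9, 2.721 Mb from Trp53. Nlrp1c-ps, also chosen after its values were seen, is 1.662 Mb from Trp53 on the same chromosome and was called lower in both cell types, with -2.95 ± 0.20 (SE, adjusted p = 2.5e-05) and -3.49 ± 0.20 (SE, adjusted p = 2.1e-05). The other members on chromosome 11, Igtp, Ifi47, Irgm1 and Ifi35, lie 11.381 to 31.916 Mb from Trp53 and were not called. Whether position on the chromosome has a part in these differences was not tested.

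The ligands themselves were scarcely read. Of 19 interferon genes in the files, 16 were at or below an RPKM of 1 in every sample, with 345 of their 384 values listed at 0 and a highest value of 0.73. Ifnb1, among the earliest type I interferons made on infection, was listed at 0 in all but 3 samples, all of them irradiated and Trp53+/+ (0.541 in B cell replicate 2 and 0.297 and 0.126 in non-B cell replicates 3 and 4). These 3 samples were also among the 4 with more than 30% of receptor genes above 0, and the part of such reads in the values was not tested. Ifng, the product of T and NK cells, had 5.17, 2.87, 4.94 and 4.45 in Trp53+/+ non-B controls and 3.61, 1.98, 3.12 and 4.75 after IR, with overlapping groups. Ifnk fell in B cells of both genotypes (-0.99 and -1.17).

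Of 8 receptors and kinases tested, 1 was called after IR, the interferon gamma receptor kinase Jak2, which fell in B cells of both genotypes. Of all genes tested, 12.2% fell in Trp53+/+ and 11.2% in Trp53-/- B cells. The log2 fold changes of Jak2 were -0.93 ± 0.09 (SE, adjusted p = 5.3e-06) in Trp53+/+ and -0.84 ± 0.13 (SE, adjusted p = 0.00033) in Trp53-/- cells. The response of Jak2 (95% interval of the log2 difference -1.28 to -0.73) and of Ifngr1 (-0.85 to -0.38), a chain of that receptor, was called lower in Trp53+/+ B than non-B cells. The factor Irf1 was not called after IR in Trp53+/+ cells, with 95% intervals of the log2 fold change of -0.13 to 0.14 in B and -0.01 to 0.33 in non-B cells. Among 16 genes for the induction of interferon, Ikbke, which encodes the kinase IKK-epsilon that activates Irf3 and Irf7, rose from an RPKM of 19.1, 22.1, 16.6 and 11.99 to 102, 107, 98.5 and 94.4 in Trp53+/+ B cells (log2 fold change 2.52 ± 0.18 SE, adjusted p = 2.3e-07). It had no such rise in Trp53-/- B cells, and the genotype difference was 2.62 ± 0.31 (SE, adjusted p = 0.00011). Of the 16 genes, Ikbke was called higher and Ticam1 lower for this difference, as were 6.56% and 5.43% of all genes tested. In Trp53+/+ non-B cells Ikbke rose by 0.66 on the log2 scale. Of all genes tested, 12.5% rose in Trp53+/+ B cells and 5.74% in Trp53+/+ non-B cells. Dhx58, a regulator of the RIG-I pathway, fell in B cells of both genotypes (-0.77 and -0.75). Trim25 and Irf2 fell in Trp53-/- B cells and were not called in Trp53+/+ B cells.

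Of 15 negative regulators, 4 rose and 1 fell in Trp53+/+ B cells, where 12.5% and 12.2% of all genes tested did so. Those that rose were Tnfaip3 (1.13), Rnf125 (0.95), Socs3 (0.75) and Socs1 (log2 fold change 0.69 ± 0.17 SE, adjusted p = 0.0047), the last a direct inhibitor of Jak kinases, and Nlrc3 (-1.16) fell. In Trp53-/- B cells Tnfaip3 (1.01) and Socs1 (log2 fold change 0.68 ± 0.24 SE, adjusted p = 0.04) rose and Nlrc3 (-1.32) and Nlrx1 fell. In Trp53+/+ non-B cells Socs3 (0.97) and Tnfaip3 (0.85) rose, and Socs1 had 0.08 ± 0.27 (SE, adjusted p = 0.86). Of all genes tested, 13.1% rose and 11.2% fell in Trp53-/- B cells, and 5.74% and 4.11% in Trp53+/+ non-B cells. The median log2 fold change of the 15 regulators was 0.03 in Trp53+/+ B, 0.04 in Trp53-/- B and -0.04 in Trp53+/+ non-B cells.

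Values were also taken for 75 tested interferon-induced genes outside the 34. In Trp53+/+ B cells 22 of the 75 fell and 1 rose, with a median log2 fold change of -0.25, and in Trp53-/- B cells 20 fell and none rose, with a median of -0.31. Of all genes tested, 12.2% fell and 12.5% rose in the former and 11.2% and 13.1% in the latter. In Trp53+/+ non-B cells 8 rose and none fell, with a median of 0.16 (5.74% and 4.11% of all genes), and the median in Trp53-/- non-B cells was -0.04. Falls in Trp53+/+ B cells included Ube2l6 (-1.51), the E2 enzyme of Isg15 conjugation, the IRG GTPase Iigp1 (-1.28) and Samhd1 (-1.05), which cleaves deoxynucleotides, and the gene that rose was Parp10 (0.91). Rises in Trp53+/+ non-B cells included I830012O16Rik (1.27), a close copy of Ifit3 with which reads may be shared, Casp4 (0.85) and Ifi204 (0.78). The response was lower in B than in non-B cells for 27 of the 75 and higher for none, against 8.90% and 9.88% of all genes.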

How the data were processed

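The authors masked bases of low quality, aligned the reads to mm9 with TopHat (2.0.6 in the methods, 2.0.8 in the submitters' processing notes), kept 1 read of each set of duplicates, counted reads on UCSC exons with featureCounts 1.4.5 and deposited RPKM values, 1 file per sample. The RNA was depleted of ribosomal RNA, and the libraries kept no strand. Read counts were not analysed here, so the study's count test was replaced by limma 3.58.1 (R 4.3.3; lmFit, contrasts.fit, eBayes with a trend) on log2(RPKM + 0.5), with Benjamini-Hochberg adjustment over all genes tested. Genes were tested where 1 or more Trp53+/+ samples had an RPKM over 1. Each cell type had 1 fit of 4 group means over 12 samples, and the cell type comparison 1 fit over 16. The scripts were tested on simulated data.

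The members and lists were chosen with earlier results of these data known. Values in every sample were given for 1 gene of each role and for the up to 4 largest calls per contrast and direction. Same-numbered control and irradiated samples of Trp53+/+ non-B cells deviated together over genes (r = 0.16 to 0.32 in 4 pairs), which in Trp53+/+ B cells was 0.01 to 0.09. The sample of the same number was the best match for 2 of 4 controls in non-B cells and 3 of 4 in B cells. Plots were drawn with matplotlib 3.10.9 under Python 3.11.15. The alternatives were pseudocounts of 0.1 and 1, other filters or none, scaling by median ratios, quantile normalization and a block for the replicate number. Others were the mean RPKM of the receptor genes as a covariate, Trp53+/+ samples alone, other fold thresholds and each sample left out. Depth rests on exonic lengths found for 91.9% of genes. Duplicate removal can lower the highest values, and the largest RPKM in a sample was 157 to 307. At the estimated depths this was 1457 to 1922 reads per kilobase. The largest RPKM of a member was 135, for Irf7 in irradiated Trp53+/+ non-B replicate 1, where the largest of any gene was 226. How far member values were lowered was not tested.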

Additional observations from a re-analysis of the deposited data

Results flagged for a closer look

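One of 76 groups of 4 Trp53+/+ samples that were searched for a sample far from the rest held one. Irf7 had an RPKM of 85.3 in replicate 1 of unstressed Trp53+/+ non-B cells and 74.7 to 76.3 in the other replicates, and chance gives such a sample in about 1 in 20 groups. The response to IR differed between Trp53+/+ and Trp53-/- B cells by -0.72 on the log2 scale for Ifi47, by 2.08 for Mx1 and by 1.41 for Mx2. In non-B cells it differed by 2.15 for Mx1 and by 1.45 for Mx2. The response of Trp53+/+ cells differed between B and non-B cells for 23 members, with the largest differences for Rsad2 (-2.09), Cmpk2 (-1.92), Oasl1 (-1.77) and Oasl2 (-1.72).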

How the results depend on the processing

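Results were recomputed under 14 other settings and with each of the 24 samples left out in turn. Of 67 calls of members, 29 held under every alternative. In all, 1535 of 1664 recomputed calls kept their side of the threshold, 129 lost it and 0 changed sign. With no fold threshold the counts of called members were 22 in Trp53+/+ B cells, 13 in Trp53+/+ non-B cells, 16 in Trp53-/- B cells and 14 between unstressed B and non-B cells, and with a log2 threshold of 1 they were 6, 4, 5 and 4, and 14 for the cell type difference of the response. With the mean RPKM of the receptor genes as a covariate, 1 member was called after IR in Trp53+/+ non-B cells and 1 for the genotype difference in non-B cells. With the replicate block the latter count was 5, with the numbers of the irradiated Trp53-/- non-B samples crossed, after a correlation of -0.25 was seen, it was 6, and without samples above 30% receptor genes, also added after seeing the data, it was 4. The block moved no other count of calls by over 1.5 times.

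With 1 sample left out at a time, counts ranged from 11 to 15 in Trp53+/+ B cells, 4 to 15 in Trp53+/+ non-B cells, 3 to 16 in Trp53-/- B cells and 0 to 0 in Trp53-/- non-B cells. They ranged from 1 to 4 and 1 to 7 for the genotype difference of the response in B and non-B cells, from 0 to 1 and 0 to 0 between unstressed genotypes, from 6 to 9 between unstressed cell types and from 21 to 24 for the cell type difference. The lone sample left in a Trp53-/- group was taken to vary like the others. In Trp53+/+ non-B cells Cxcl10 lost its call under 6 alternatives and Ifit2 under 9 (adjusted p up to 0.25 and 0.51). Ifi47 lost its genotype difference in B cells under 12 (up to 0.16), Oasl2 its fall in Trp53-/- B cells under 10 (up to 0.39) and Ifih1 its cell type difference of the response under 10 (up to 0.075), while Rsad2 and Igtp each lost the call between unstressed cell types under 6. The cause of these changes was not tested.

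Only 2 Trp53-/- samples per group limit every genotype difference, and a missed call there does not show an equal response. Depth is estimated and no count test was possible on RPKM. Exons of Parp9 and Dtx3l share 458 bases, and those of Ifi35 and Gm11626 share 290, and unstranded reads in them cannot be assigned.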
